A study of Homo sapiens with 5 samples.

Results

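The interleukin-1 family genes IL1A, IL1B, IL1RN, IL1R1, IL1R2, IL1RAP, IL1RL1, IL18 and IL33 were followed across 5 arrays of MCF12A, a line established from human breast epithelium that does not form tumours. They were taken by name with earlier results of these data known, so counts among them are descriptions only. All 9 were found, each on 1 probe set. They stand among 17958 named genes on a set of 3 arrays and 18417 on a set of 2. Per the labels, the first set holds cells kept for 4 weeks in 2.5% ethanol, cells given 1% acetaldehyde for as long, the compound that ethanol is oxidised to first, and an untreated control. The second set holds a clone picked from soft agar, where only cells that divide without anchorage grow, after ethanol exposure labelled as 4 weeks, and the control that the labels give it, which is untreated but also tagged as selected on soft agar. The clone stands for 1 clonal line, and its ethanol dose is written in more than 1 unit in the labels, so none is given. The clone's arrays are of the design that the protocols pair with a shorter exposure than its label gives, and this was not resolved. All cultures were monolayers grown with horse serum, epidermal growth factor, hydrocortisone, insulin and cholera toxin. Each group had 1 array, so the values have no replicates and no test could be made, and this number is what sets the precision.

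Interleukin-1 signalling starts when IL1A or IL1B binds the receptor IL1R1, which then recruits the shared subunit IL1RAP and, through MYD88 and IRAK kinases, activates NF-kB. The pathway is held in check outside the cell by IL1RN, a ligand that occupies IL1R1 without signalling, and by IL1R2, a decoy receptor that binds ligand but lacks the intracellular signalling domain. IL18 and IL33 are related cytokines with receptors of their own, and IL1RL1 is the receptor for IL33. Surface epithelia, keratinocytes above all, store IL1A and IL18 in resting cells and make IL1RN.

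IL1A, IL1RN and IL18 were lower, and the receptor genes IL1R1 and IL1R2 higher, in both ethanol and the clone than in their controls. In ethanol, 4 of the 9 genes (IL1A, IL1B, IL1RN and IL18) were at least 2-fold lower than in control, where 2.46% of the 11264 genes past the intensity floor were lower by that much. In the same comparison 2 genes, IL1R1 and IL1R2, were at least 2-fold higher, beside 2.63% of all genes. In acetaldehyde the same 2 receptor genes were higher, beside 1.03% of 11194 genes, and 0 members were at least 2-fold lower, beside 0.0536%. In the clone IL1R1 and IL1R2 were again higher, beside 14.7% of 12262 genes, and 3 members, IL1A, IL1RN and IL18, were lower, beside 5.84%. The floor is the median intensity of all probe sets in a table, 70.2 in the first set and 92.0 in the second, and a difference was counted only where the brighter of both arrays reached it. Of the 9 genes, 7 passed it in ethanol and in acetaldehyde and 6 in the clone. IL1RL1 and IL33 passed in no comparison and IL1B did not in the clone. Where the dimmer array lay under the floor, the floor takes its place and the fold is written as a lower bound, while counts use the deposited values. In bulk RNA, fewer cells of a type and less RNA per cell cannot be told apart.

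**Figure D1:**
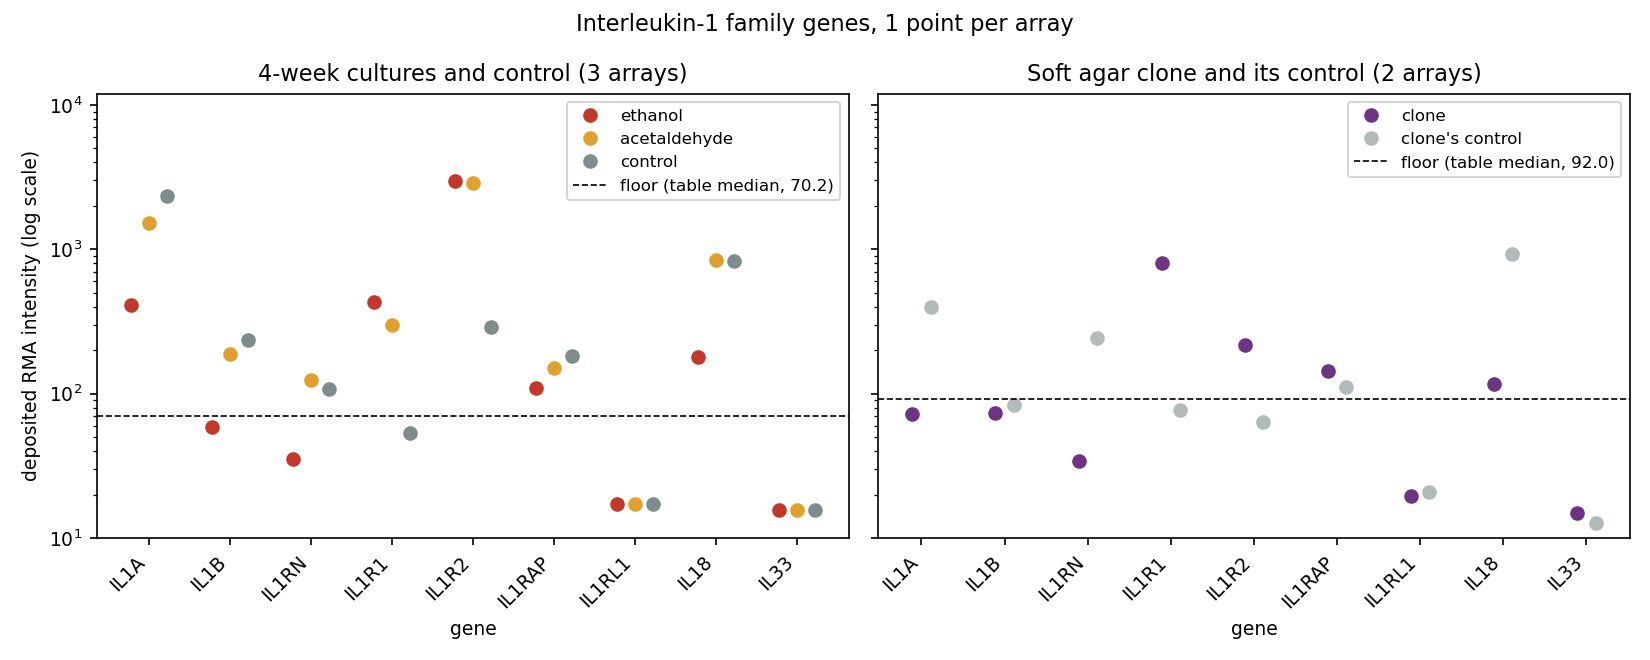
Deposited intensity on a log scale (y axis) of the 9 genes (x axis), 1 point per array, for ethanol, acetaldehyde and control on the left and the clone and its control on the right, with the table median as a dashed line. Ethanol stands below control for IL1A, IL1B, IL1RN and IL18 and above it for IL1R1 and IL1R2, while IL1RL1 and IL33 lie far under the line in all arrays. Heights of different genes come from different probes and are not to be compared.

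The agonist ligands come first. IL1A, an alarm signal kept inside epithelial cells, had an intensity of 411 in ethanol and 1511 in acetaldehyde, against 2345 in control. It was 5.71-fold lower in ethanol, a log2 difference of -2.51, and -0.63 in acetaldehyde. The ethanol value stood far from the other arrays of its set, and acetaldehyde lay between ethanol and control. IL1A in the clone was at 72.3, under the floor, against 398 in the clone's control, at least 4.33-fold lower.

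IL1B, the secreted agonist that caspase-1 cuts into its active form, had 59.3 in ethanol and 188 in acetaldehyde, against 235 in control. It was at least 3.34-fold lower in ethanol, and its log2 difference in acetaldehyde was -0.32. Its clone values of 73.1 and, in the clone's control, 83.0 were both under the floor, so no fold is given there.

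IL18, which epithelia make in a resting state and which caspase-1 also processes, had 179 in ethanol and 839 in acetaldehyde, against 832 in control. Ethanol was 4.65-fold lower, while acetaldehyde and control differed by 0.01 on the log2 scale. In the clone IL18 was at 118, against 929 in the clone's control, 7.90-fold lower. Both values were above the floor, and the log2 difference was -2.98. IL33, an alarm cytokine of barrier tissues, was dim throughout, at 15.6 in each of the first 3 arrays, at 14.8 in the clone and at 12.8 in the clone's control.

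The antagonist IL1RN went with the agonists in ethanol and in the clone. Its intensity was 35.5 in ethanol and 124 in acetaldehyde, against 109 in control. The deposited values differ by -1.61 in log2 between ethanol and control, but ethanol was under the floor, and against the floor the gene was only at least 1.55-fold lower. In the clone IL1RN was at 33.9, against 241 in the clone's control, at least 2.62-fold lower. Acetaldehyde had a log2 difference of 0.19, the other direction from ethanol.

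The receptors for interleukin-1 showed the opposite picture, and here acetaldehyde went with ethanol. IL1R1, the signalling receptor, had 435 in ethanol and 297 in acetaldehyde, against 53.7 in control. That was at least 6.19-fold higher in ethanol and at least 4.23-fold higher in acetaldehyde, since the control was under the floor. In the clone it was at 804, against 76.8 in the clone's control, at least 8.74-fold higher. IL1R1 was under the floor in both controls and past it in all 3 exposed arrays. On the deposited values its log2 differences were 3.02 in ethanol, 2.47 in acetaldehyde and 3.39 in the clone.

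IL1R2, the decoy receptor, had 2976 in ethanol and 2882 in acetaldehyde, against 288 in control. It was 10.3-fold higher in ethanol and 9.997-fold higher in acetaldehyde, measured above the floor in all 3 arrays. Both exposed arrays stood close together and far from control. In the clone IL1R2 was at 216, against 63.8 in the clone's control, at least 2.35-fold higher. The clone's control was under the floor, so this is a lower bound.

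Of the remaining receptor subunits, IL1RAP was 1.68-fold lower in ethanol, and IL1RL1 was under the floor in every array. IL1RAP, the subunit that IL1R1 and the IL33 receptor need to signal, had 109 in ethanol and 151 in acetaldehyde, against 183 in control, log2 differences of -0.75 and -0.27. In the clone it was at 144, against 112 in the clone's control, a log2 difference of 0.36. No difference of IL1RAP reached 2-fold in any comparison. IL1RL1, which mast cells and some T cells carry, was at 17.3 in all 3 arrays of the first set, at 19.4 in the clone and at 20.9 in the clone's control. Values for IL1RL1 and for IL33 were each equal in ethanol, acetaldehyde and control within 1e-06 in log2. Such ties covered 43.9% of probe sets between ethanol and control and 48.2% between acetaldehyde and control, against 1.02% between the clone and its control, and their source was not tested.

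**Figure D2:**
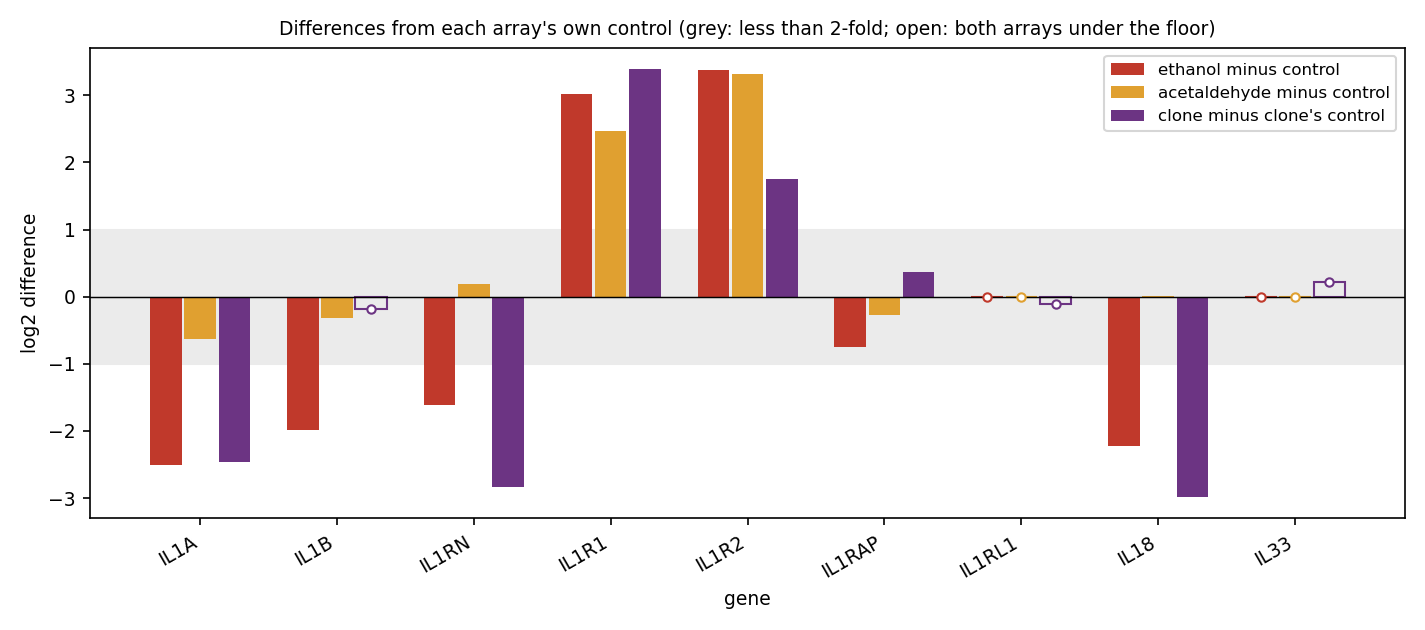
Log2 difference (y axis) of each gene (x axis) for ethanol and acetaldehyde against their control and for the clone against its own control, from 1 array a group. The 2 receptor genes IL1R1 and IL1R2 are past 2-fold upward in all 3 comparisons, at 1.76 or more, while IL1A, IL1RN and IL18 are past 2-fold downward in ethanol and in the clone but not in acetaldehyde.

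Ethanol and acetaldehyde share their control array, so their differences from it are not independent. The exposed arrays were therefore also compared with each other, although 1% acetaldehyde and 2.5% ethanol are not matched doses. Acetaldehyde had 4 of the 9 members at 2-fold or more above ethanol, beside 1.87% of 11221 genes. They were IL18 at 4.69-fold, IL1A at 3.68-fold, IL1B at least 2.67-fold and IL1RN at least 1.77-fold, the last counted on its deposited values with a log2 difference of 1.81. No member (0 of 9) was at least 2-fold lower in acetaldehyde, beside 0.526% of genes. IL1R2 had a log2 difference of -0.05 and IL1R1 one of -0.55, 297 in acetaldehyde against 435 in ethanol. Neither receptor gene reached 2-fold between the exposed arrays. The clone and its control share no array with the other set, and intensities were not set across the sets. In the clone the median log2 difference was -0.17 over all probe sets and -0.02 over genes past the floor. Values of genes past the floor can be read against the second.

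Most family genes lie in 2 clusters of human chromosome 2, by their order in RefSeq's GRCh38.p14 annotation. The receptor cluster runs IL1R2, IL1R1, IL1RL2, IL1RL1, IL18R1, IL18RAP, 6 protein-coding genes that all belong to the family. Only the first pair in that order passed the floor, and it did so in all 3 control comparisons, whereas the next 4 genes were under the floor in each. The ligand cluster runs from IL1A and IL1B through IL37, the IL36 genes and IL1F10 to IL1RN, 9 protein-coding genes. IL1A and IL1B at one end and IL1RN at the other had log2 differences of -2.51, -1.99 and -1.61 in ethanol, while the 6 genes between them were under the floor. Beside the clusters, MAP4K4 next to IL1R2 had 0.52 in ethanol, 0.40 in acetaldehyde and 1.30 in the clone, and CKAP2L next to IL1A had 0.11, -0.08 and 0.95.

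**Figure D3:**
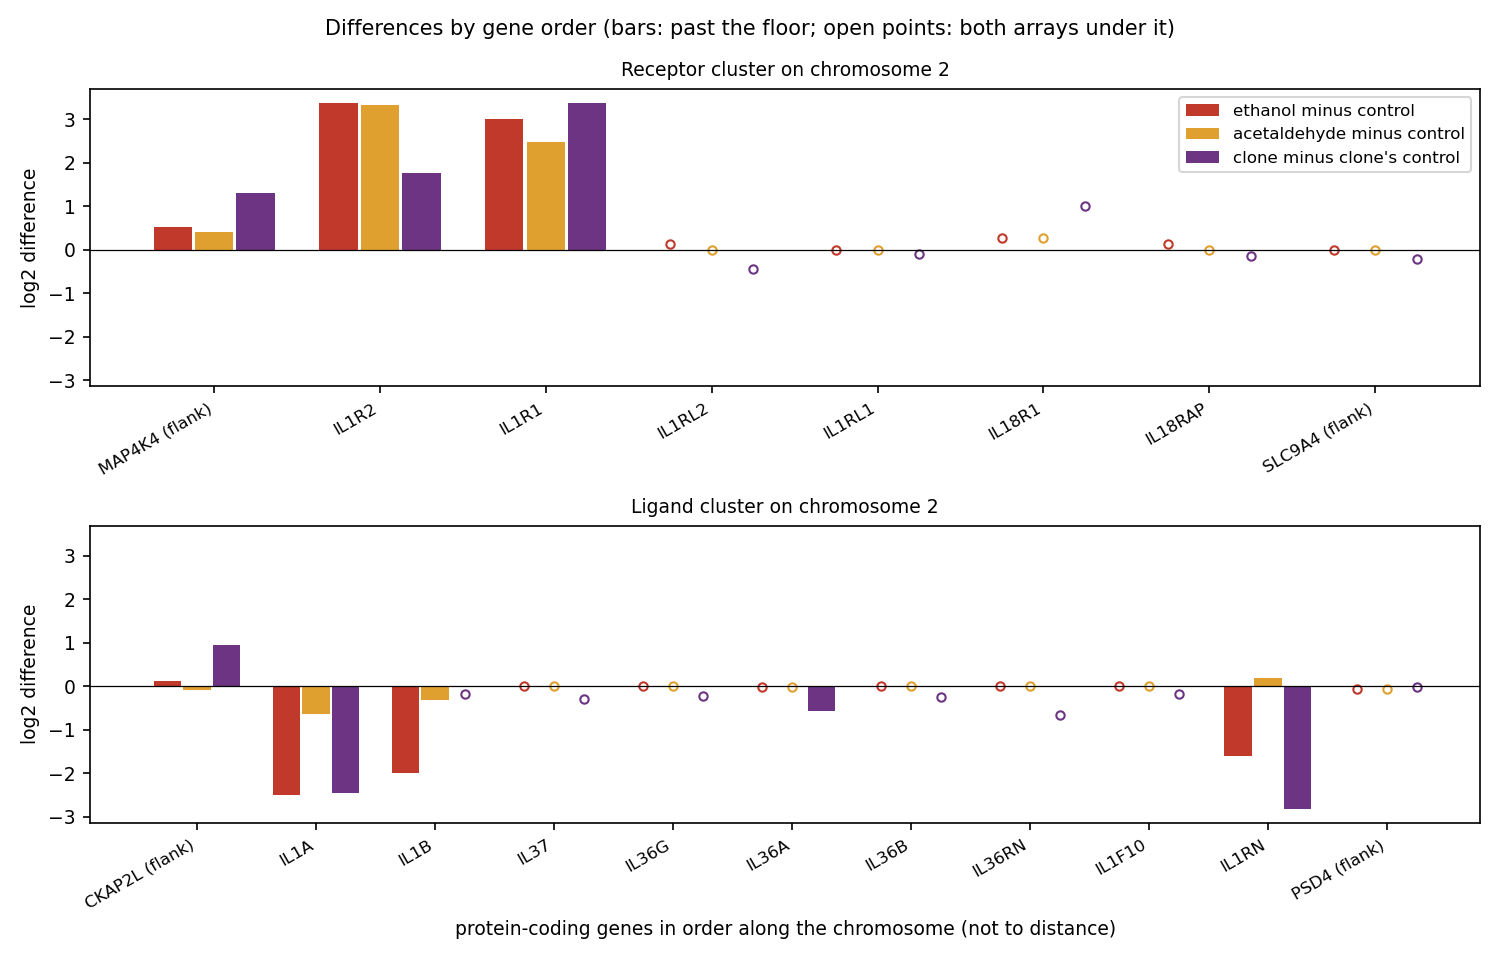
Log2 differences (y axis) of protein-coding genes in their order along chromosome 2 (x axis, not to distance), with bars for genes past the floor and open points for genes under it in both arrays. In the receptor cluster IL1R2 and IL1R1 carry bars of 1.76 to 3.39 next to 4 dim genes, and in the ligand cluster the bars stand at both ends, with IL36A in the clone, at -0.57, the exception.

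Sequence upstream of the 5 members of these clusters that passed 2-fold is shown so that the start regions of the lower and the higher group can be read side by side. The sequences are RefSeq's for build GRCh38.p14, 250 bases ending 1 base before the start site, 5′ to 3′ on the gene's strand. Windows were found for 8 of the 9 genes. Where a gene has several windows (IL1A 2, IL1RN 3, IL1R2 2 and IL1R1 4), the one with the start site furthest 5′ is printed, and the arrays do not tell which start was used. They lie at chr2:112784494-112784743 and chr2:112836780-112837029 on the minus strand, and at chr2:113117721-113117970, chr2:101991710-101991959 and chr2:102104354-102104603 on the plus strand. Capitals mark matches, on either strand, to 3 short motifs. The first is the AP-1 site, read as TGANTCA. The second is the TATA box that many start sites have upstream, read as TATAAA. The third is the box named by its own letters, CCAAT.
IL1A: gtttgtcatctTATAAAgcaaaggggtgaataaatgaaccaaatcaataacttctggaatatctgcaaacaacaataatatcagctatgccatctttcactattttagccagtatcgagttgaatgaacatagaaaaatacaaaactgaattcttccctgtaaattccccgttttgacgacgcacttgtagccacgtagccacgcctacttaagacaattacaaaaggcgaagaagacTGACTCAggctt
IL1B: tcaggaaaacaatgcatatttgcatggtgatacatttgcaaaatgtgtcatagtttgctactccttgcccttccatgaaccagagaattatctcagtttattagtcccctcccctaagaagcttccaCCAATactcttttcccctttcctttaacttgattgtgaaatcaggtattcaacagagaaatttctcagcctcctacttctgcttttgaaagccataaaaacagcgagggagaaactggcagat
IL1RN: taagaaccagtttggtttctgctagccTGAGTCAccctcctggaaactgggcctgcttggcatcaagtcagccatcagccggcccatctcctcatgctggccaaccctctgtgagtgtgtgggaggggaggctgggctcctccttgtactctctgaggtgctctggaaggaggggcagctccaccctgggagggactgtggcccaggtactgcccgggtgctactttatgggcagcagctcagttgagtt
IL1R2: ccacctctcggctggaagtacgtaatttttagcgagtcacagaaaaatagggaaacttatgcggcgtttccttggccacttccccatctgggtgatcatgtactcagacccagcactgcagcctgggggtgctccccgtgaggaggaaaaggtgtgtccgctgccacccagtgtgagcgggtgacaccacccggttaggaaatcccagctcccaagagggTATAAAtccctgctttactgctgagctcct
IL1R1: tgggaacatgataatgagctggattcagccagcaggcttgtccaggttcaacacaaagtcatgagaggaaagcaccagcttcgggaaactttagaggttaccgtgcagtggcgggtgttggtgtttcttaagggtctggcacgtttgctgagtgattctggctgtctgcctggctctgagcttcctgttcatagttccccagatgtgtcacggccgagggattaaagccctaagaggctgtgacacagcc

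In these printed windows the AP-1 letters stand in IL1A, at base -12, and in IL1RN, at base -223, and not in IL1B, IL1R1 or IL1R2. Over all 17 windows of the 8 genes, 4 held the AP-1 letters, 5 a TATA box and 7 a CCAAT box. Among all 35116 windows of the same length, 6.57% held the AP-1 letters, 10.7% a TATA box and 32.0% a CCAAT box. One form of the NF-kB site was searched too and matched 0 of the 17 windows, beside 0.527% of all. A match, or its absence, describes letters only.

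By distance over the 3 control differences, the nearest of 10445 genes past the floor throughout were sought for the 5 members past 2-fold in ethanol and the clone. For IL1A these were ADGRG1, BNC1 and MARVELD2, at Euclidean distances of 0.20, 0.39 and 0.45 in log2 units. For IL18 they were SOX15, JUP and SPINT2, at 0.39, 0.44 and 0.44, and for IL1RN they were KLF5, PERP and SLPI, at 0.31, 0.34 and 0.37. IL1R1 was nearest to EDIL3, CCN2 and MMP2, at 0.41, 0.44 and 0.49. The nearest to IL1R2 were further off, with HPD, TWIST1 and NPR3 at 1.38, 1.43 and 1.47. The distances rest on 3 deposited values a gene, of which 2 share a control. For IL1A, IL1RN, IL1R1 and IL1R2 at least 1 of the differences involves an array under the floor, so their distances carry that uncertainty.

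The rest of the family was dim. Of 13 other ligands and receptors, among them the IL36 cytokines, IL37 and the IL18 receptor chains, 1 passed the floor in ethanol and in acetaldehyde and 3 in the clone. Of these 0 reached 2-fold, a count that says little with so few past the floor. SIGIRR, an inhibitory receptor of the family, had 83.0 in ethanol, acetaldehyde and control alike, and 150 in the clone, against 211 in the clone's control. IL18BP, which captures IL18 outside the cell, was at 93.7 in the clone, against 92.8 in the clone's control.

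Among the genes that process these cytokines, those past the floor showed no 2-fold difference from control in ethanol or acetaldehyde. CASP1, the gene of caspase-1, was under the floor, at 44.4 in ethanol and 56.1 in acetaldehyde, against 59.2 in control. It was under the floor in the clone and its control too, so the enzyme named above for IL1B and IL18 could not be assessed. Of 17 listed, 16 were measured and 10 passed the floor. Over all genes past it 2.63% were higher and 2.46% lower in ethanol, and 1.03% and 0.0536% in acetaldehyde. A count of 0 among 10 is near those shares. Of the measured genes, 7 in ethanol and 8 in acetaldehyde had values equal to control. The median log2 differences were -0.06 in ethanol and 0.00 in acetaldehyde, beside 0.00 over all genes past the floor. PYCARD, the inflammasome adaptor, had 133 in ethanol and 238 in acetaldehyde, against 263 in control, and its log2 difference in ethanol was -0.98. In the clone PYCARD was at 264, against 474 in the clone's control. There CASP8, an initiator caspase, was 2.94-fold higher and NAIP, an inflammasome sensor, at least 1.71-fold higher with a deposited log2 difference of 1.21, which made 2 of 10 higher and 0 lower, beside 14.7% and 5.84% of all genes. NAIP was under the floor in the clone's control. ELANE, a protease of neutrophils, had a log2 difference of -0.60 in the clone.

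Signalling components downstream of the receptor also stayed within 2-fold in ethanol and acetaldehyde. Of 26 listed, 21 passed the floor in the first set and 0 of these reached 2-fold in either. Over all genes 2.63% were higher and 2.46% lower in ethanol, and 1.03% and 0.0536% in acetaldehyde. A count of 0 among 21 is near those shares. Medians were 0.00 in both, with values equal to control in 6 of 23 measured genes in ethanol and 9 in acetaldehyde. Among all genes past the floor, 30.7% and 37.9% had equal values. Furthest from 0 among the listed genes were TAB3, an adaptor of the TAK1 kinase, at -0.91 and the NF-kB subunit REL at -0.75, both in ethanol. In the clone 22 passed and 2 were higher, IKBKB, a kinase that frees NF-kB, at least 2.05-fold and the subunit NFKB1 at 2.01-fold, beside 14.7% of all genes. The median was 0.25, beside -0.02 over all genes past the floor, and lay between 0.13 and 0.42 under the alternatives. NFKB1 lay at the threshold itself. The adaptor MYD88 had 0.94 and the inhibitor NFKBIA -0.93 in the clone.

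Genes that interleukin-1 is known to induce differed in both directions. Of 33 listed, 21 passed the floor in ethanol, 5 were at least 2-fold higher and 1 lower, beside 2.63% and 2.46% of all genes. Their median was 0.21, beside 0.00 over all genes past the floor. The chemokine CCL20 was at 253 in ethanol, against 74.2 in control, 3.41-fold higher. CXCL8, which draws neutrophils, was at least 3.18-fold higher at 223, and CXCL2 was 2.75-fold higher at 344. SOD2, a mitochondrial superoxide dismutase, and IL6 were the others past 2-fold, at 2.30-fold and at least 1.99-fold, and were named after their values were seen. LCN2, an iron-binding protein of epithelia, was the lower one, at 97.8 in ethanol against 406 in control, 4.15-fold.

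In acetaldehyde 19 of these genes passed and 1 reached 2-fold, CXCL2 at 307 against 125 in control. Over all genes 1.03% were higher and 0.0536% lower there. The median of the listed genes was 0.07, and 9 of the 30 measured had values equal to control. SOD2 and CXCL8 had log2 differences of 0.78 and 0.65. Compared with ethanol, acetaldehyde had lower CCL20, IL6 and CXCL8, at -2.02, -1.16 and -1.06, and higher LCN2, at 1.53. LCN2, like IL1A and IL18, was lowest in ethanol of the 3 arrays, and CCL20 and CXCL8 were highest there.

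In the clone 21 passed, 5 were higher and 5 lower, beside 14.7% and 5.84% of all genes. Their median was -0.41, beside -0.02 over all genes past the floor, and it lay between -0.68 and -0.23 under the alternatives. LCN2 was at 107, against 2546 in the clone's control, 23.9-fold lower. TNFAIP3, a feedback inhibitor of NF-kB, was 3.17-fold lower. CXCL1, a neutrophil chemokine, was at 858, against 122 in the clone's control, 7.05-fold higher, and CXCL8 was at least 2.44-fold higher. TNFAIP6, a hyaluronan-binding protein, was at 104, against 24.7 in the clone's control and so at least 1.13-fold higher against the floor.

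**Figure D4:**
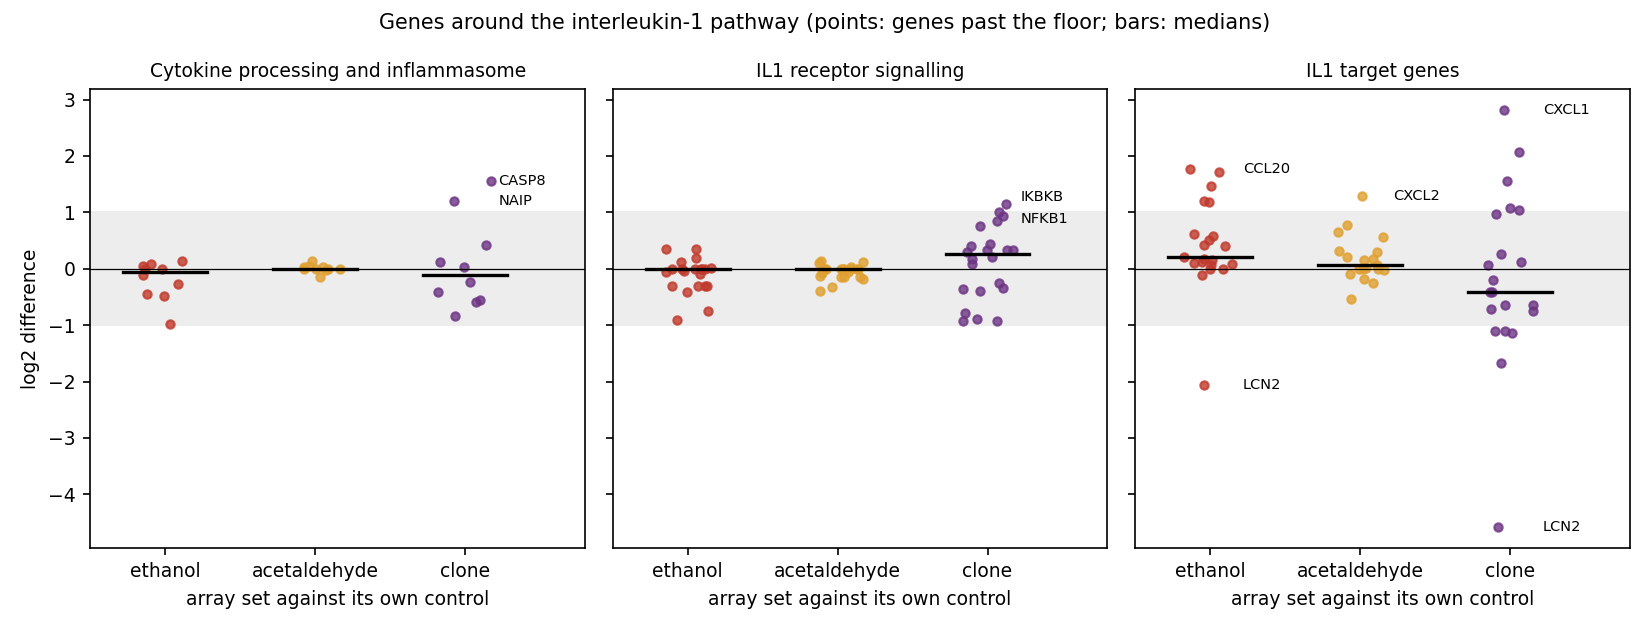
Log2 differences (y axis) of listed genes past the floor in each comparison with a control (x axis), with black bars at the medians. Processing and signalling genes stay within 2-fold in ethanol and acetaldehyde, while target genes spread both ways, from -2.05 to 1.77 in ethanol and from -4.58 to 2.82 in the clone.

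Most measured markers of breast epithelium were lower in ethanol and in the clone, where IL1A, IL1RN and IL18 were lower too. Their part in the result was not tested. Of 10 epithelial markers 8 were measured. In ethanol 5 were at least 2-fold lower and 1 higher, in acetaldehyde 0 in either direction, and in the clone 6 lower and 0 higher. Over all genes 2.46% were lower and 2.63% higher in ethanol, 0.0536% and 1.03% in acetaldehyde, and 5.84% and 14.7% in the clone. The 5 lower in ethanol were CDH1, EPCAM, KRT14, ITGB4 and ITGA6. KRT8 was the higher one, at 2.08-fold, and KRT18 had a log2 difference of 0.03. In the clone KRT8 and KRT18 had 0.06 and 0.20. The 8 markers summed to 9323 in ethanol and 14918 in acetaldehyde, against 14641 in control. In the clone they summed to 10666, against 26680 in the clone's control. Sums here add different probe sets and lean on the brightest, such as KRT5, at 3629 in ethanol against 6056 in control. CDH1 and EPCAM were under the floor in the clone. Among 12 macrophage and leukocyte markers, 4 stood at or above the floor in each array, CD14, CD68 and SPI1 with CSF1R or TYROBP, and all those measured summed to 1932 in ethanol and 1515 in acetaldehyde, against 1191 in control, and 1826 in the clone, against 2026 in the clone's control. CD68, a lysosomal protein, differed most in intensity among these markers in the first set, at 1484 in ethanol and 1055 in acetaldehyde, against 721 in control. In ethanol CD14 was equal to control, SPI1 differed by 0.01 and CSF1R by -0.34 in log2. PTPRC, the pan-leukocyte marker, was under the floor in all 5 arrays, and so were the 4 measured mast cell markers. Fibroblast markers summed to 532 in ethanol and 533 in acetaldehyde, against 458 in control. Their sum was 1634 in the clone, against 750 in the clone's control. In each comparison 4 of 7 passed the floor, and DCN lay under it in both controls. DCN was at least 1.25-fold higher in ethanol and 1.40-fold in acetaldehyde, past 2-fold on deposited values, beside 2.63% and 1.03% of all genes. In the clone 3 of the 4 were higher, beside 14.7%. These were COL3A1 at 4.19-fold, COL1A1 at 2.21-fold and DCN at least 1.81-fold. Of 6 endothelial markers, CLDN5 stood above the floor in all arrays and KDR in the clone, with sums of 287 in ethanol and 276 in acetaldehyde, against 276 in control, and of 660 in the clone, against 523 in the clone's control.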

How the data were processed

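Per the submitters' processing notes, the deposited intensity values were computed with RMA, which corrects background, quantile-normalises arrays and summarises probes. Its version and a genome build are not given in the sources used here. The 2 tables belong to different array designs and were taken to have been normalised apart, and a difference never crosses tables.

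Log2 of the deposited intensity was taken. Probe sets with exactly 1 symbol in GEO's platform annotation were used (19181 and 19460 of 33297), with the brightest per gene by table mean. A difference counted where the brighter array reached the table's median. Genes at or past 2-fold were counted. With 1 array a group no test was run. The calculations were tested on simulated data. The members and gene lists were chosen with earlier results of these data known. From each list, up to 4 genes at least 1.5-fold and furthest from 0 were named, and for each member past 2-fold the 3 nearest genes. Median intensities were 70.2 in ethanol, 70.6 in acetaldehyde and 70.0 in control, then 89.9 in the clone and 94.0 in its control. The 9 alternatives covered floor, fold, scaling and probe choice. Python 3.11.15 with pandas 2.3.3 and statsmodels 0.14.6 was used.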

Additional observations from a re-analysis of the deposited data

Results flagged for a closer look

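Among the genes given with values above, IL1RAP and 6 others past the floor in both comparisons were drawn out. Their log2 differences from the own control had opposite signs in ethanol and in the clone, whatever their size. Of 51 listed pathway genes past the floor in both, 19 met this description, and those not named above are not given here. These differences between comparisons were not tested. IL1RAP had log2 differences of -0.75 in ethanol and 0.36 in the clone, and TAB3 had -0.91 in ethanol and 0.17 in the clone. NFKB1 had -0.31 in ethanol and 1.00 in the clone. NFKBIA had 0.36 in ethanol and -0.93 in the clone, and TNFAIP3 had 0.42 in ethanol and -1.67 in the clone. Of the leukocyte markers, CD68 had 1.04 in ethanol and -0.084 in the clone, and SPI1 had 0.010 in ethanol and -0.51 in the clone. The clone value of CD68 and the ethanol value of SPI1 are so small that their sign carries little.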

How the results depend on the processing

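Across 9 alternatives, 68 of 72 counts of members stayed within 1.5 times the reported count. With the floor at the 75th percentile, 2 members in place of 4 were at least 2-fold lower in ethanol, 2 in place of 4 were higher in acetaldehyde than in ethanol, and 1 in place of 2 was higher in the clone, since fewer genes are tested there. At 1.5-fold, 1 member in place of 0, IL1A, was lower in acetaldehyde. With values under the floor raised to it, IL1RN no longer reached 2-fold in ethanol against control (-0.63) or in acetaldehyde against ethanol (0.82). Only centring, quantile normalisation again and the lowess correction could change the sign of a member's difference. The floor and fold settings alter which differences are counted, and averaging probe sets alters nothing for members with 1 each. Raising values to the floor can shrink a difference but not reverse it. Under the scalings no member difference past 2-fold changed sign, whereas IL1B in the clone, under the floor, had -0.18 as reported and 0.03 after the lowess correction. Centring, quantile normalisation again and a lowess correction moved a member's log2 difference by at most 0.010 in ethanol, 0.025 in acetaldehyde, 0.23 in the clone and 0.022 between acetaldehyde and ethanol. Of 140 list medians, 47 differed from the reported value. The processing median in ethanol was -0.06 as reported and -0.45 at the higher floor, and the target median in the clone was -0.41 as reported, -0.25 when centred and -0.68 at the higher floor. No paired analysis was possible because each group has 1 array, and leaving out an array was not possible either.

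Counts over all genes differed by more than 1.5 times with the fold. At 1.5-fold and 3-fold, 597 and 135 genes were higher and 577 and 130 lower in ethanol, 242 and 56 higher and 46 and 1 lower in acetaldehyde, and 3145 and 758 higher and 1871 and 309 lower in the clone. The direct comparison gave 425 and 97 higher and 249 and 12 lower in acetaldehyde. At the higher floor 73 genes in place of 115 were higher in acetaldehyde than in control, and 37 in place of 59 lower than in ethanol. Signal over background limits IL1RL1, IL33 and, in the clone, IL1B, which lay under the floor in both arrays compared. It also limits differences with only the dimmer array under the floor. Those arrays were both controls for IL1R1, the clone's control for IL1R2, and ethanol and the clone for IL1RN. For IL1B the array was ethanol, and for IL1A it was the clone.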
